A study of Equus caballus with 12 samples.

Results

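The heart shares most of its transcripts with other organs, and the level of a shared transcript can differ from one heart sample to the next while it stays even elsewhere. The wall of the ventricle is built of muscle cells that contract without rest, with fibroblasts, vessels, nerves, fat and blood between them, and RNA of the whole tissue holds transcripts of all of these. Heart muscle also adjusts its transcripts to workload, hormones, fuel and oxygen supply. In bulk tissue, fewer cells of a type and less RNA per cell cannot be told apart.

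The genes described here are those that were expressed in heart, varied strongly between the 4 heart libraries, and stayed within a set limit of spread among the 4 lung and among the 4 liver libraries. Counts were divided by median-of-ratios size factors, which place the libraries on 1 scale through the 8968 genes with at least 10 counts in every library, and all levels below are such normalised read counts. A member had a heart median of at least 200, a highest heart library at least 6 times the lowest (the heart ratio), a heart median under 20 times the higher of the lung and liver medians, a liver median at most 3 times the heart median, and a highest over lowest value below 4 in lung and in liver after 5 was added to each value. These conditions were met by 37 of 31217 annotated genes. Over the members, the standard deviation as a percent of the mean had a median of 64.4% in heart, 29.0% in lung and 37.6% in liver. It still reached 74.3% in lung, and 200% in liver for a gene with almost no liver reads. Because the measured values chose the members, their spread between heart libraries is a description, and no test was made of it.

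The samples came from 4 healthy cold-blooded stallions of 1 to 2 years, none of them treated, and each animal gave 1 library of heart, 1 of lung and 1 of liver. According to the methods of the study, these were pieces of left ventricle, of the caudal lobe of the right lung and of the right lobe of the liver, taken at slaughter. Replicates are numbered by horse, so heart, lung and liver replicate 1 share an animal. With 1 heart library per horse, the animal, the piece of tissue, the RNA and the library cannot be told apart. The files pair no gene symbol with the Ensembl identifiers and the RefSeq table at hand lists no Ensembl identifier. The study's supplement pairs symbols with a few of the members, which were not used here, so genes are given by identifier, their functions are not stated, and the labelled tissues were not checked against marker genes.

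Reads counted in genes ranged from 6146728 in heart replicate 3 to 23474239 in heart replicate 1, from 8395937 to 22247307 in lung and from 4345694 to 18142916 in liver. Heart replicate 2 held transcripts of the liver: the 30 most abundant genes with a liver mean over 1000 times the lung mean reached 2.87% of what they had in liver (median) in this library, compared with 0.0461%, 0.227% and 0.0928% in heart replicates 1, 3 and 4. Heart replicate 3 was the shallowest heart library and had the highest share of reads that fell on more than 1 gene, 7.29% against 5.07% to 6.15% in the others. Every heart pattern below is therefore given with the libraries it rests on.

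A heart ratio of 6 was far from typical. Among the 6063 genes with a heart median of at least 200, the median heart ratio was 1.57 and the 90th percentile 2.70, and 126 genes, or 2.08%, reached 6. Of these 126 genes, 118 met the cap against lung and liver, 80 of them also the cap on the liver level, 43 also the limit on the spread in lung, and 37 also that in liver. The cap on the liver level removed many of the genes that were highest in heart replicate 2, the library with liver transcripts, since such genes fell from 90 to 54 at that step. Just inside the limit on the heart ratio were members at 6.07 and 6.24, and just outside were genes at 5.99 and 5.95. The lowest heart medians of members were 208 and 211, and the nearest genes left out for their heart median had 199 and 189.

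The extremes were unevenly spread over the 4 hearts. Heart replicate 3 was the lowest library for 21 of the 37 members, heart replicate 2 for 8, and heart replicates 1 and 4 for 4 each. Among all 6063 genes with a heart median of at least 200, heart replicate 3 was lowest for 25.8%, heart replicate 2 for 34.6%, heart replicate 1 for 20.6% and heart replicate 4 for 19.0%. At the other end, heart replicate 2 was highest for 21 members, heart replicate 3 for 9, heart replicate 4 for 4 and heart replicate 1 for 3, beside 21.4%, 35.0%, 23.7% and 19.9% of all those genes. The most frequent combination was lowest in heart replicate 3 and highest in heart replicate 2, with 16 members, followed by lowest in heart replicate 2 and highest in heart replicate 3, with 6. The lead of heart replicate 3 as the lowest library appeared only with the limit on the spread in lung. Among the 126 genes with a heart ratio of at least 6, heart replicate 1 was lowest for 63 and heart replicate 3 for 29. Once the caps on the levels were also met, the numbers were 34 and 25. With the limit on the spread in lung they were 7 and 23.

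**Figure D1:**
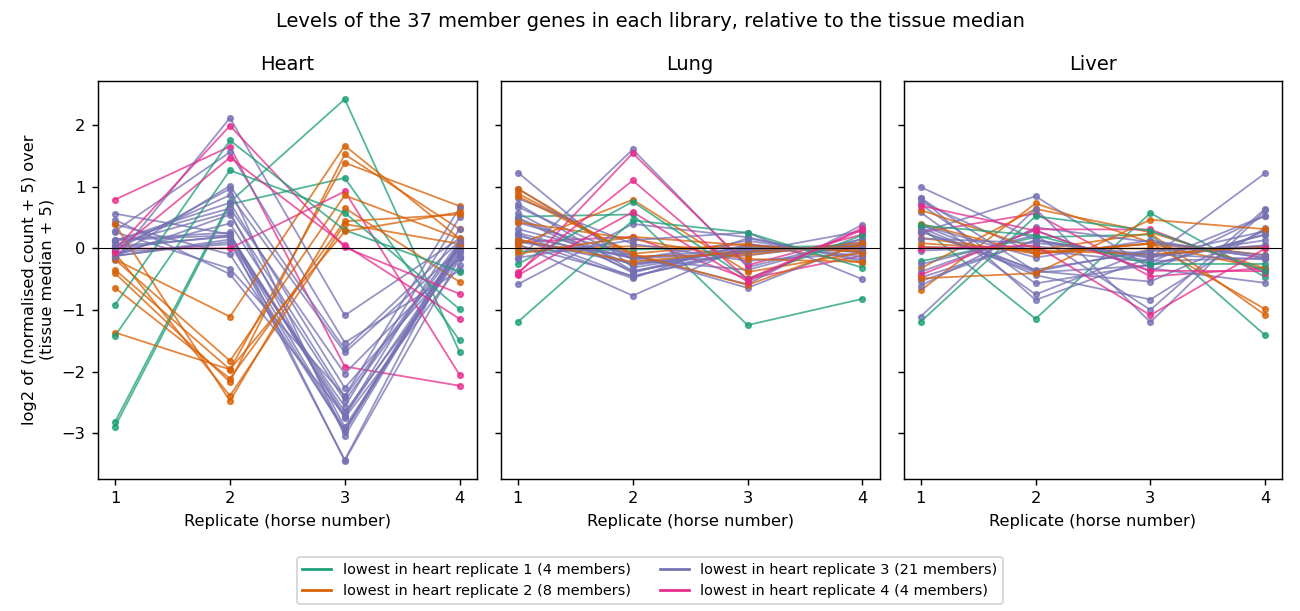
Level of each of the 37 members in each library, as log2 of the normalised read count plus 5 over the tissue median plus 5, with the replicate (horse number) on the horizontal axis and 1 panel per tissue; lines join the libraries of 1 gene and colours give its lowest heart library. In heart the 21 lines that are lowest in replicate 3 drop there, and in 16 of these genes the other hearts differ less than 2-fold. The lung and liver lines spread less, as the choice of members requires.

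The 21 members that were lowest in heart replicate 3 formed the main group. Their levels ran from 25.6 to 168 in heart replicate 3, with a median of 62.2, and had medians of 406, 536 and 373 in heart replicates 1, 2 and 4. In each gene the level of heart replicate 3 was 0.0780 to 0.408 of the median of the other 3 hearts, with a median of 0.142. The other 3 hearts were close to each other: their highest over lowest value had a median of 1.61 and was below 2 in 16 of the 21 genes. A single library thus set the heart ratio of most of this group.

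ENSECAG00000021309 had the largest heart ratio of the group. Its levels were 419, 845, 47.6 and 439 in heart replicates 1 to 4, 369, 260.1, 285 and 333 in lung replicates 1 to 4, and 44.8, 22.9, 26.2 and 21.8 in liver replicates 1 to 4. Heart replicate 3 was far below the other hearts and every lung library, and just above the highest liver library. The ratio of 17.8 had a 95% counting interval from 10.3 to 33.6.

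ENSECAG00000028562 showed the single low library most plainly. It stood at 938, 1017, 73.2 and 758 in heart, at 789, 354, 437 and 363 in lung and at 87.0, 45.7, 35.0 and 36.3 in liver, in the order of the replicates. The 3 other hearts lay within a narrow band and heart replicate 3 lay within the range of the liver, with a ratio of 13.9 (95% counting interval 8.93 to 22.9).

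In 3 genes of this group heart replicate 1 was the highest library. ENSECAG00000008784 was read at 305, 217, 25.6 and 247 in heart, at 149, 81.6, 148 and 137 in lung and at 10.9, 19.1, 15.0 and 21.8 in liver. ENSECAG00000013922 was more abundant, with 1069, 847, 102 and 595 in heart, 1410.0, 1105, 1232 and 1225 in lung and 419.9, 263, 285 and 407 in liver. In both genes the lung and liver libraries of horse 3 stood among those of the other horses, and heart replicate 3 alone was low.

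In a further 2 genes heart replicate 4 was the highest. ENSECAG00000024267 had 282, 185, 40.3 and 373 in heart, 608, 335, 297 and 423 in lung and 197, 113, 84.9 and 196 in liver. ENSECAG00000023509 had 743, 869, 132 and 1148 in heart, 3598, 2495, 1719 and 2874 in lung and 16.3, 66.7, 15.0 and 65.4 in liver. Unlike the genes above, these 2 were lowest in horse 3 in all 3 tissues, although the differences in lung and liver were smaller than in heart. In ENSECAG00000023509 liver replicates 1 and 3 held 12 reads each, so which of them was lower rests on the scaling.

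Depth limits the ratios of this group. The lowest library held between 7 and 46 reads for its 21 members, and under 20 reads for 12 of them, whereas the other 16 members had from 36 to 1146 reads in their lowest library. Exact 95% counting intervals of the heart ratio stayed at 6 or above in 18 of the 37 members, namely in 8 of the 21 that were lowest in heart replicate 3 and in 10 of the others. The smallest lower bound was 4.07. The intervals describe a ratio that chose the members, between libraries taken as the extremes, and are no test of it. These intervals cover counting error only, since reads were not tagged as single molecules.

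**Figure D2:**
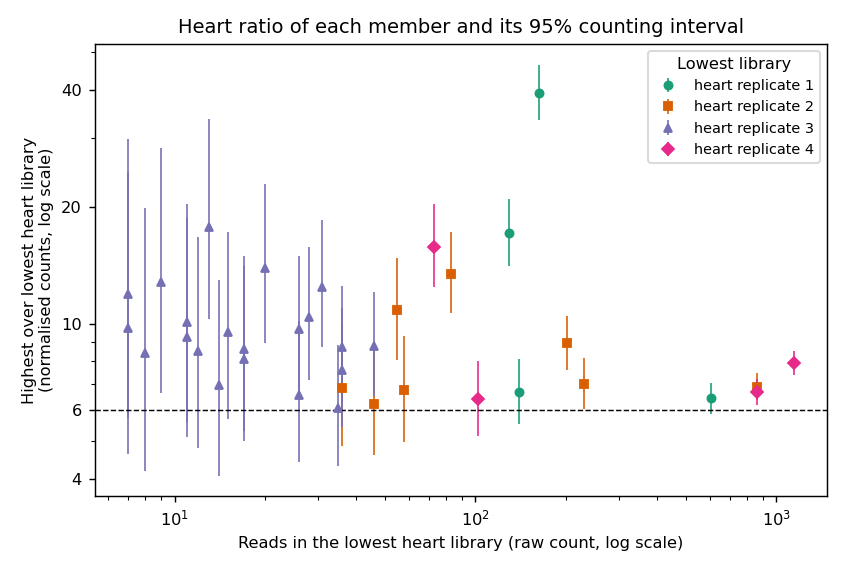
Heart ratio (highest over lowest heart library, normalised read counts, log scale) of each of the 37 members against the raw reads in its lowest heart library (log scale); bars are exact 95% counting intervals, symbols and colours give the lowest library, and the dashed line is the limit of 6. Members that are lowest in heart replicate 3 lie at 7 to 46 reads with wide bars, and the other members at 36 to 1146 reads.

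Low values in heart replicate 3 were also counted over the 6063 genes with a heart median of at least 200. Of these, 44 stood at 0.25 of the median of the other 3 hearts or less in heart replicate 3, compared with 33, 22 and 16 in heart replicates 1, 2 and 4. Members made up 18 of the 44, beside 4, 7 and 4 in heart replicates 1, 2 and 4. With the members set aside, heart replicate 3 no longer had the most such genes. Liver replicate 1, by the same measure, had 85 such genes and lung replicate 1 had 49. The part that depth and RNA quality of heart replicate 3 have in the low values was not tested.

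In the libraries of horse 3 outside the heart, the 21 genes were nearer to the other horses. Lung replicate 3 stood at a median of 0.975 and liver replicate 3 at 0.787 of the other 3 libraries of the tissue. Lung replicate 1 and liver replicate 1 were the highest in the median, at 1.30 and 1.45, and heart replicate 2 stood at 1.40 of the other hearts. The members were chosen for a limited spread in lung and liver, which holds these medians near 1. Lung replicate 3 was the lowest lung library in 5 of the 21 genes, beside 33.7% of the genes with a heart median of at least 200 that were lowest in heart replicate 3. Liver replicate 3 was the lowest liver library in 7 of the 21 genes, beside 25.8% of those genes.

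The 8 members that were lowest in heart replicate 2 moved the other way. Their median level was 105 in heart replicate 2, against 358, 1279 and 630.1 in heart replicates 1, 3 and 4, and heart replicate 3 was the highest library in 6 of them and heart replicate 4 in 2. Here the other hearts differed too: their highest over lowest value had a median of 2.32 and was below 2 in only 2 genes.

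ENSECAG00000014566 led this group with levels of 433, 124, 1669 and 716 in heart. It stood at 685, 345, 387 and 311 in lung, and the liver held 7 reads over its 4 libraries. The hearts thus ranged from below to above all lung libraries, with a ratio of 13.5 (95% counting interval 10.6 to 17.2).

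ENSECAG00000018525 had 127, 82.1, 889 and 544 in heart and almost equal levels in lung, 68.3, 70.5, 68.9 and 67.4. In liver it had 162, 439, 281 and 243. All hearts were above all lung libraries, heart replicates 1 and 2 lay below every liver library, and heart replicates 3 and 4 above every one.

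ENSECAG00000008916 was among the most abundant members, at 2449.8, 1284, 8849.6 and 3098 in heart, and stood between 133 and 162 in lung and between 65.4 and 95.1 in liver. All 4 hearts were above all other libraries, and heart replicate 3 was 6.89 times heart replicate 2. With 860 reads in its lowest library, the 95% counting interval was narrow, 6.37 to 7.46. Its heart median was 19.7 times the higher of the other medians, just inside the limit of 20.

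The largest heart ratio of all belonged to a gene that was lowest in heart replicate 1. ENSECAG00000028803 had 136, 1677, 5354 and 305 in heart, 292, 299, 82.5 and 113 in lung and 522, 182, 611 and 294 in liver. Heart replicates 2 and 3 exceeded every lung and liver library, while heart replicates 1 and 4 lay among them, and the ratio was 39.3 (95% counting interval 33.4 to 46.4). ENSECAG00000029423 had the same order of hearts with 108, 1375, 1852 and 293, beside 181, 184, 189 and 193 in lung and 341, 449, 463 and 145 in liver. Both genes parted heart replicates 2 and 3 from 1 and 4, in contrast to the single low library of the main group.

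Of the 4 members that were lowest in heart replicate 4, ENSECAG00000018927 had the largest ratio. Its hearts fell into a high pair, 604 and 1102 in replicates 1 and 2, and a low pair, 87.8 and 69.8 in replicates 3 and 4. The lung had 1055, 1118, 694 and 905 and the liver 1222, 1514, 742 and 817, so that replicates 1 and 2 were also above 3 and 4 in those tissues, by much less.

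ENSECAG00000018104 was the most abundant member in heart and in liver. It had 4557, 4571, 8685 and 1096 in heart, 80.1, 328, 89.1 and 128 in lung and 4767, 7965, 7950.4 and 4883 in liver. Heart replicate 4 was the low library, and the other hearts lay near or above the liver libraries. In heart replicate 2, 2.87% of its liver level would amount to 4.02% of the measured value.

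**Figure D3:**
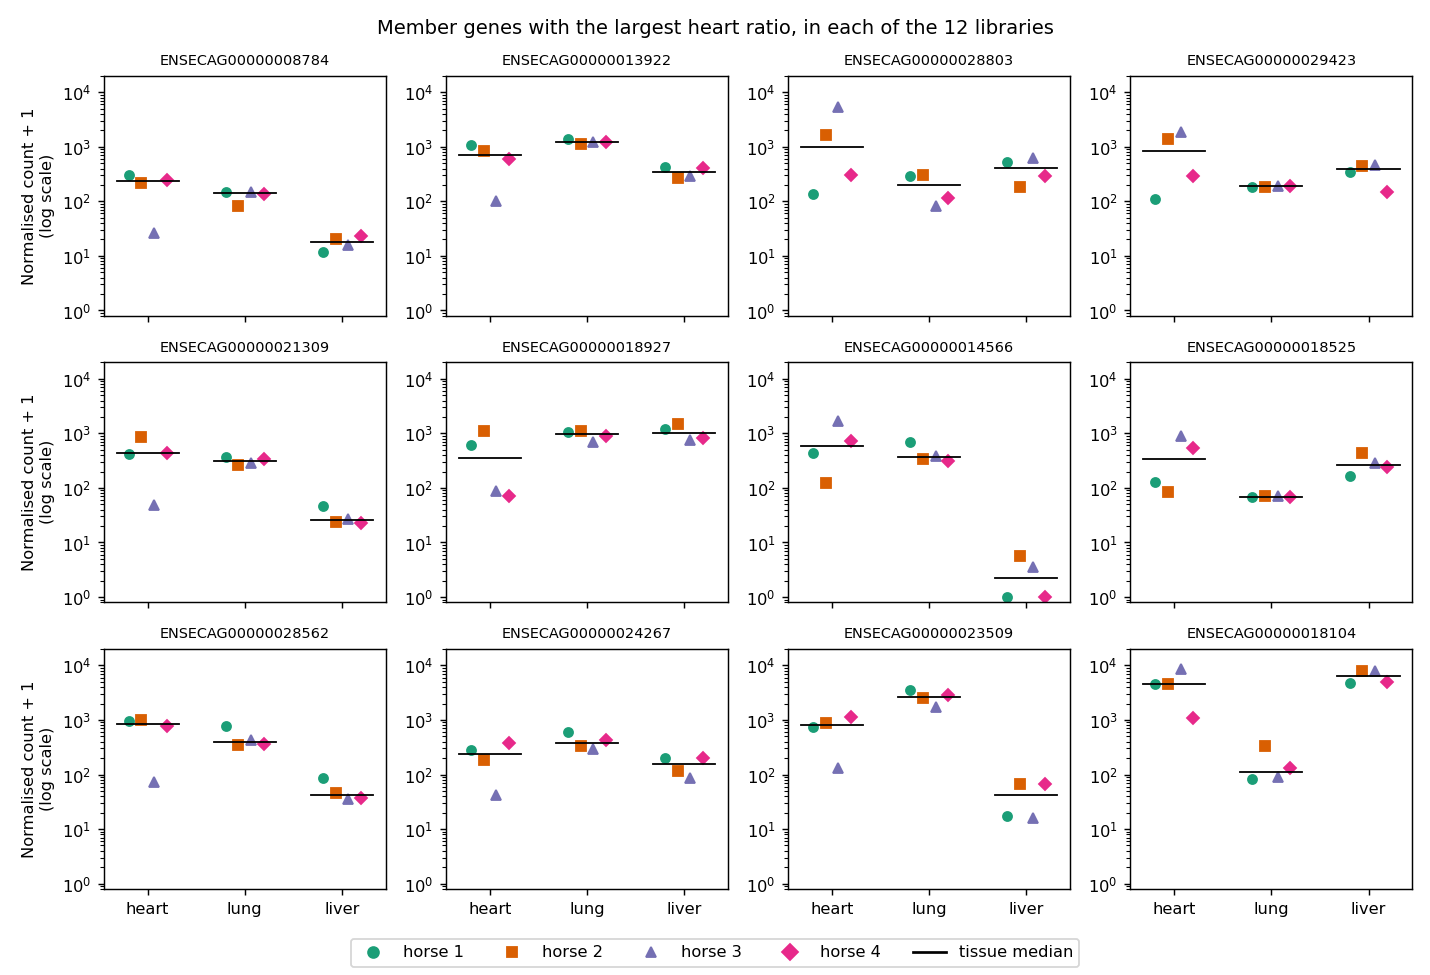
Normalised read count plus 1 (log scale) of 12 members in the 12 libraries, by tissue; symbols and colours are horses and the horizontal bar is the tissue median. Panels of the genes that are lowest in heart replicate 3 show its triangle below the other hearts, as in ENSECAG00000028562 at 73.2 against 758 to 1017.

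The level of liver-restricted genes in heart replicate 2 was set beside the members' own liver levels. For the 21 members that were highest in this library, 2.87% of the gene's own liver level would come to a median of 0.671% and at most 3.46% of the level measured there. The choice of members capped the liver median at 3 times the heart median, which by itself keeps these shares low. The calculation applies 1 median share to every gene, and the part of liver transcripts in the members' values was not tested. Over all 37 members the median was 0.689%, and 1 member exceeded 10%, ENSECAG00000008497, at 33.5%. That gene was lowest in heart replicate 2, with 222, 68.7, 344 and 428 in heart, 362, 281, 318 and 337 in lung and 557, 591, 1084 and 974 in liver. The 3 other hearts of this gene stood from 222 to 428.

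Whether the order of the horses in heart returned in the other organs was examined next. The highest heart library and the highest lung library were of the same horse in 10 of the 37 members, and the highest heart and liver libraries in 8. Among the 5225 genes that met every condition apart from the heart ratio, the same horse was highest in heart and lung in 31.7% and in heart and liver in 26.1%, and among all 6063 genes with a heart median of at least 200 in 32.4% and 27.4%. The lowest heart library was matched by the lowest lung library in 9 members and by the lowest liver library in 10, beside 29.4% and 25.7% of the comparable genes and 30.2% and 26.7% of the 6063. The members' counts lie close to these background shares.

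The matches were uneven over the patterns. The 3 members that were highest in heart replicate 1 were all highest in lung replicate 1, beside 39.6% of the genes with a heart median of at least 200 that were highest in heart replicate 1, and in ENSECAG00000008784 lung replicates 1 and 3 were nearly level at 149 and 148. All 5 members that were highest in heart replicate 2 and lowest in heart replicate 1 or 4 were highest in lung replicate 2 as well, whereas 2 of the 16 that were highest in heart replicate 2 and lowest in heart replicate 3 were. Among the 977 genes that were highest in heart replicate 2 and met the conditions apart from the heart ratio, the share was 31.1%. This grouping was chosen after the values had been seen. The 5 genes were ENSECAG00000018927, given above, and 4 others. ENSECAG00000017015 had 1356, 5488, 1391 and 822 in heart and 782, 1598, 728 and 1334 in lung. ENSECAG00000014489 had 213, 626, 231 and 97.5 in heart and 77.0, 226, 71.0 and 128 in lung. ENSECAG00000022047 had 117, 783, 483 and 159.7 in heart and 62.8, 132, 52.6 and 89.1 in lung. The fifth, ENSECAG00000019932, had 507, 3259, 1182 and 739 in heart, 1020.4, 3211, 2795 and 1883 in lung and 315, 1044, 887 and 563 in liver. It was the only member with the same order of the 4 horses in all 3 tissues, an agreement that 29 of the 5225 genes showed.

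Differences between horses outside the heart were tested in the 8 lung and liver libraries, with the tissue and the horse as terms. After adjustment over 15015 genes, 2 of the 37 members fell below an adjusted p of 0.05 (edgeR, quasi-likelihood F-test), ENSECAG00000019932 with 0.00888 and ENSECAG00000001870 with 0.0282, beside 1.68% of all tested genes and 0.517% of the genes that met the conditions apart from the heart ratio. ENSECAG00000001870 had 1602, 545, 676 and 679.7 in lung and 207, 81.9, 102 and 145 in liver, and horse 1 was highest in both. In heart the same gene had 292, 421, 32.9 and 265, where horse 1 was not the highest. At an unadjusted p below 0.05 (same F-test) there were 13 of the 37 members, a larger share than the 13.6% of all tested genes and the 9.97% of the comparable ones. Of these 13 members, 9 were lowest in heart replicate 3, as were 21 of all 37. The number of 2 rested on few libraries: it was 0 without lung replicate 1 or without liver replicate 1, 1 without lung replicate 3, lung replicate 4 or liver replicate 4, 5 without liver replicate 2, and 7 in DESeq2's likelihood ratio test. The limit on the spread within lung and liver had removed genes with large differences between horses there.

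Lung and liver were then compared (LvsLR). The choice of members did not use this contrast directly, although it capped the liver level and the spread in both tissues. The fit took in all 12 libraries, so the spread between hearts, which chose the members, entered the standard errors, the p-values and the calls. Of the 37 members, 29 were DEGs, called by edgeR's quasi-likelihood F-test where the adjusted p was under 0.05 and the log2 fold change was 1 or more in size. The lung had the higher level in 26 of them and the liver in 3. Over all 15436 tested genes 50.4% were DEGs, 31.1% with more in lung and 19.4% with more in liver. Among the 5225 genes under the same conditions apart from the heart ratio, 37.3% were DEGs, 19.8% toward lung and 17.5% toward liver. The members leaned to the lung, with 70.3% of them higher there. Every lung library was above every liver library in 27 members, beside 39.1% of all tested genes and 35.2% of the comparable ones, and the reverse held in 3 members, beside 24.1% of all tested genes.

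The median log2 fold change of the members was 1.77, compared with 0.26 for all tested genes. All 21 members that were lowest in heart replicate 3 had higher fitted levels in the lung, with log2 fold changes from 0.43 to 5.95 and a median of 2.42, and 17 of them were DEGs. Of the 8 that were lowest in heart replicate 2, 5 were called toward lung and 2 toward liver. Of the 4 each that were lowest in heart replicates 1 and 4, 2 and 2 were higher in the lung, and 1 of the latter was higher in the liver. The number of 29 stayed the same when 1 heart library was left out. It was 25 to 28 when a lung library was left out, 23 to 27 when a liver library was left out, and 28 with the horse as a block. With library totals in place of TMM scaling it was 32, with 31 toward lung, and without a filter on low counts it was 27.

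ENSECAG00000003580 had the largest log2 fold change in LvsLR, 7.67 ± 0.83 (SE, adjusted p = 4.16e-06 in edgeR's quasi-likelihood test, 8.40e-05 or lower in the alternatives). It had 228, 188, 149 and 144 in lung and only 2 reads over the 4 liver libraries, and the ratio of pooled counts was 238 with a 95% counting interval from 65.7 to 1966. ENSECAG00000014566 followed with 7.30 ± 0.99 (SE) and a ratio of pooled counts of 161 (95% counting interval 78.1 to 401). In the other direction, the log2 fold change was -5.48 ± 0.67 for ENSECAG00000018104 (adjusted p = 1.76e-05, edgeR) and -2.17 ± 0.63 for ENSECAG00000018525 (adjusted p = 0.00948, edgeR; 0.000563 to 0.315 in the alternatives). The last call was lost with library totals in place of TMM scaling, where the log2 fold change was -0.63 and the adjusted p 0.315.

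**Figure D4:**
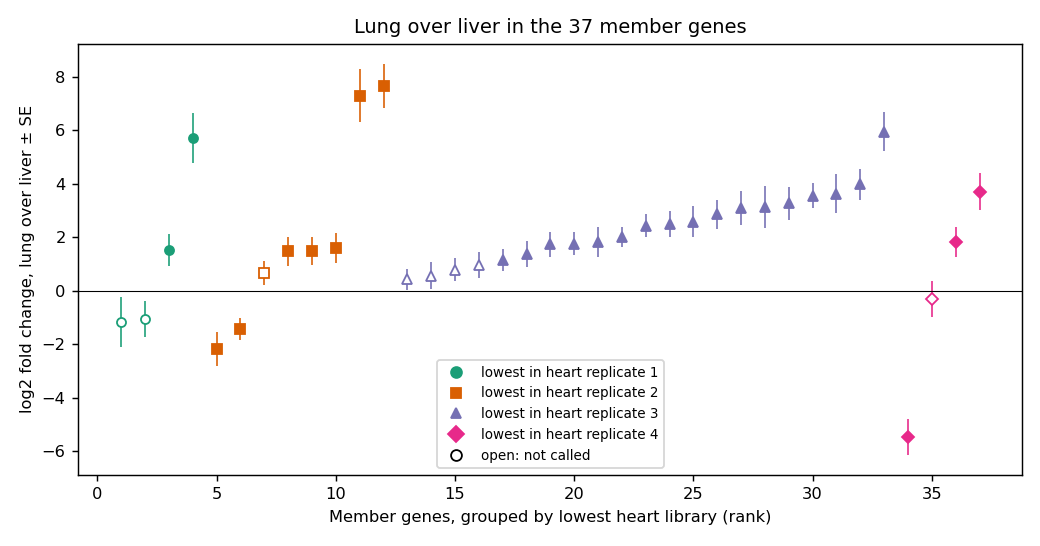
Fitted log2 fold change of lung over liver for each of the 37 members, grouped by the lowest heart library (symbols and colours). Bars are approximate standard errors derived from the F statistic. Filled symbols are DEGs and open symbols are not. All 21 members that are lowest in heart replicate 3 lie above 0, between 0.43 and 5.95.

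Heart was compared with the other tissues as a description only, because the choice of members used these contrasts. In lung against heart (LvsH), 20 members passed the same thresholds, 8 toward lung and 12 toward heart, beside 45.2% of all tested genes (24.5% toward lung and 20.7% toward heart) and 34.8% of the comparable genes (5.22% toward lung and 29.5% toward heart). All 8 that were higher in the lung belonged to the 21 that were lowest in heart replicate 3. In heart against liver (HvsLR), 20 members passed, 19 of them toward heart, beside 48.4% of all tested genes (26.4% toward heart and 22.0% toward liver) and 37.9% of the comparable genes (32.6% toward heart and 5.34% toward liver). The split in LvsH depended on the scaling, since 18 of 21 DEGs were higher in the lung with library totals alone.

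The fitted values with the largest changes in LvsH were 1.88 ± 0.47 for ENSECAG00000010552 and 1.68 ± 0.59 for ENSECAG00000023509 on the lung side, and -5.08 ± 0.66 for ENSECAG00000018104 and -4.93 ± 0.50 for ENSECAG00000008916 on the heart side (log2 fold change ± SE). ENSECAG00000010552 stood at 4261, 2553, 2107 and 2294 in lung against 717, 1002, 132 and 792 in heart, so the tissues did not overlap even at the highest heart library. In HvsLR the log2 fold changes of ENSECAG00000003580 and ENSECAG00000014566 were 8.72 ± 0.82 and 8.22 ± 0.99 (SE), and ENSECAG00000008497 was the only member called toward liver, at -1.54 ± 0.42 (SE). With the horse as a block, ENSECAG00000018927 was called toward liver too, at -1.61 (adjusted p = 0.0366 in edgeR's quasi-likelihood F-test).

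Of the 4 heart libraries, leaving out replicate 3 changed the set of members most, and no lung or liver library was left out for this count. Heart replicate 3 was the lowest library of 21 members and the highest of 9, so the choice of members itself made this likely. When the conditions were applied without heart replicate 3, 7 genes met them, all of them among the 37. Without heart replicate 2 there were 23 genes, 18 of them among the 37, and without heart replicates 1 and 4 there were 34 and 33, with 31 and 29 shared. With TMM scaling in place of size factors 41 genes met the conditions, 36 of them among the 37.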

How the data were processed

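RNA of heart (H), lung (L) and liver (LR) from 4 horses was sequenced in 12 libraries. The deposited values are raw read counts per Ensembl gene, which the authors made with HTSeq after TopHat2 alignment, on EquCab3.0 per the submitters' processing notes. The library kit keeps no strand, and no source at hand gives the strand setting of the counting, so overlapping genes cannot be told apart. The 5 rows of each file that name no gene were left out, with 18.7% to 20.3% of heart reads in no gene. Median-of-ratios size factors were computed with Python 3.11.15 and numpy 2.4.6. The members and gene lists were chosen with earlier results of these data known. Differential expression was tested with edgeR 4.0.16 in R 4.3.3 (TMM, filterByExpr, robust quasi-likelihood F-test, tissue as the term, all 12 libraries) with Benjamini-Hochberg adjustment over all tested genes. DESeq2 1.42.0, other scalings, no filter, each library left out and the horse as a block were the alternatives. The block was not in the main fit, although horses pair the libraries: deviations from the tissue means had a mean correlation of 0.157 over 12 same-horse pairs and -0.0521 over 36 other pairs. Scripts were tested on simulated counts. Genes named in the text were the 2 with the largest heart ratio for each highest and each lowest heart library and the 2 DEGs with the largest change in each direction per comparison; any others were chosen after their values had been seen. The SE given with a log2 fold change is its size divided by the square root of the F statistic, an approximation and not a fitted standard error. Exact 95% intervals of count ratios cover counting error only. Symbols were taken only from the files or the reference table, which pair none with these identifiers, and those that the study's supplement gives for some genes were not used, so the gene lists and cell type markers were not applied.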

Additional observations from a re-analysis of the deposited data

Results flagged for a closer look

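In 66 groups of 4 libraries, 7 had a library that stood apart from the other 3 by Dixon's criterion, which chance alone meets in about 1 in 20 groups. That rate does not hold for the heart values, because the genes were chosen for a wide spread in heart, so the number is a description. In heart, replicate 3 stood apart on the low side for ENSECAG00000008784 at a normalised read count of 25.6, for ENSECAG00000028562 at 73.2 and for ENSECAG00000010552 at 132. ENSECAG00000008784 also had a low lung replicate 2, at 81.6. ENSECAG00000003580 had a high liver replicate 1, at 2.72, which is the only liver library with reads of this gene. Among measures of the whole library, compared between the hearts only, heart replicate 3 had the lowest share of reads in no gene, 18.7%. Heart replicate 2 had the highest level of liver-restricted genes among the hearts, 2.87% of their liver level. What sets these libraries apart was not tested.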

How the results depend on the processing

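The number of members was 23 with a heart ratio of at least 8, 100 with at least 4, 86 with a heart median of at least 100, 41 with TMM scaling and 26 with library totals. It was 18 when the lower bound of the counting interval had to reach 6, an alternative chosen after seeing the data. Leaving out a heart library gave 7 (without replicate 3) to 34 (without replicate 1), with 23 without replicate 2. Horse differences in lung and liver were found in 7 members by DESeq2's likelihood ratio test, in 1 with the heart libraries added, and in 0 to 5 when a library was left out. Members called in LvsLR numbered 23 to 29 over the libraries left out, in LvsH 16 to 24 and in HvsLR 20 to 24. With the horse as a replicate block they numbered 28, 19 and 21, and among the named genes the block changed only the calls of ENSECAG00000028803 in LvsH (adjusted p 0.0514, edgeR) and ENSECAG00000018927 in HvsLR (adjusted p 0.0366, edgeR). With library totals, the log2 fold changes of lung over liver turned positive for ENSECAG00000028803 (0.41), ENSECAG00000029423 (0.53), ENSECAG00000018927 (1.23) and ENSECAG00000008497 (0.12). The cause was not tested. In the shallowest heart library, 12 members had under 20 reads.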
